A study of Mus musculus with 4 samples.

Results

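Levels of 9 transcription factors that mark the midbrain, hindbrain and spinal cord were followed in neural precursors depleted of Geminin. Gbx2, En1, En2, Pax2, Pax5, Egr2, Irx3, Irx5 and Meis1 were chosen by name, and all 9 were found among the 21690 features of the deposited tables.

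The embryonic neural tube is divided along its length into forebrain, midbrain, hindbrain and spinal cord, and each territory is marked by its own transcription factors. The midbrain and hindbrain meet at the isthmus, a boundary that secretes Fgf8 and Wnt1 and is held in place by Gbx2 on the hindbrain side and Otx2 on the midbrain side, with the engrailed genes En1 and En2 and the paired-box genes Pax2 and Pax5 expressed around it. Further back, Egr2 (also called Krox20) marks alternating hindbrain segments, the Iroquois genes Irx3 and Irx5 mark the neural plate behind the forebrain, and Meis1 is a homeodomain cofactor of Hox and Pbx proteins.

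RNA was sequenced from neural precursors made from A2lox mouse embryonic stem cells that carry a doxycycline-inducible knockdown of Geminin, a small nucleoprotein that restrains replication licensing. The 3 Geminin knockdown libraries came from separate experiments and received 500 ng doxycycline between day 3 and day 5. The 1 control library held the same knockdown cells without doxycycline. All 4 cultures were monolayers in N2B27, which contains no serum, and were taken on day 5. Every doxycycline-treated culture carried the knockdown, so the drug and the loss of Geminin cannot be told apart, and the lone control gives no spread between control cultures. The cells come from the A2lox line, which is maintained on feeder fibroblasts, and the libraries shared 1 sequencing lane.

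Gmnn, which encodes Geminin, was at 24.0%, 58.4% and 24.7% of the control in knockdown libraries 1, 2 and 3, so library 2 kept the most. The authors' deposited tables marked Gmnn as lower in libraries 1 and 3 but not in library 2, with a q-value of 0.0722 there. All 11 neural precursor markers were above 1 FPKM (fragments per unit of exon length and of mapped fragments, a level corrected for both) in the control, and their summed level was 1091, 1903 and 1682 FPKM in knockdown libraries 1, 2 and 3, against 1108 FPKM in the control. Vim, an intermediate filament gene and the 1 called gene of that list, made up most of the difference: the other 10 markers summed to 715, 898 and 725 FPKM, against 721 FPKM in the control. Sox1, an early neural factor, had 63.8, 42.5 and 48.8 FPKM, against 64.0 FPKM in the control. Other cell states moved along with the libraries. The summed level of 8 measured neuronal markers was 151, 547 and 276 FPKM in knockdown libraries 1, 2 and 3, against 141 FPKM in the control, and that of 9 pluripotency markers was 83.2, 332 and 542 FPKM, against 60.2 FPKM. Of the neuronal markers 4 were called higher and 0 lower, but Stmn2 went the other way in libraries 2 and 3. Stmn2 had 75.4, 44.6 and 40.5 FPKM, against 66.9 FPKM in the control. In these bulk libraries fewer cells of a type and less RNA per cell cannot be told apart.

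A gene was called when the authors' deposited tables, each of which sets 1 knockdown library against the control, marked it significant in at least 2 of 3 tables in 1 direction. By this rule En2 was higher in the knockdown and no member was lower. That is 1 of 9 members, where 1.98% of 14477 callable features were higher, 0.905% were lower and 2.88% were called in either direction. Only 7 members could be called, because En1 had a usable test in 0 tables and Pax5 in 1. Single tables marked 3 more: Pax2 as higher and Egr2 as lower in library 2, and Irx3 as lower in library 3. In the table of library 1, 0 members were marked, where 2.43% of tested features were (0.909% as higher and 1.52% as lower). In the table of library 2, 3 members were marked, where 5.24% of features were (3.23% as higher and 2.02% as lower). In the table of library 3, 2 members were marked, where 4.62% of features were (3.33% as higher and 1.28% as lower). Of the knockdown libraries, Gmnn was lowest in library 1 and highest in library 2, and the part of its level in these counts was not tested. Counting a mark in at least 1 table, 4 of 9 members were marked, where 8.48% of 14955 features were.

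**Figure D1:**
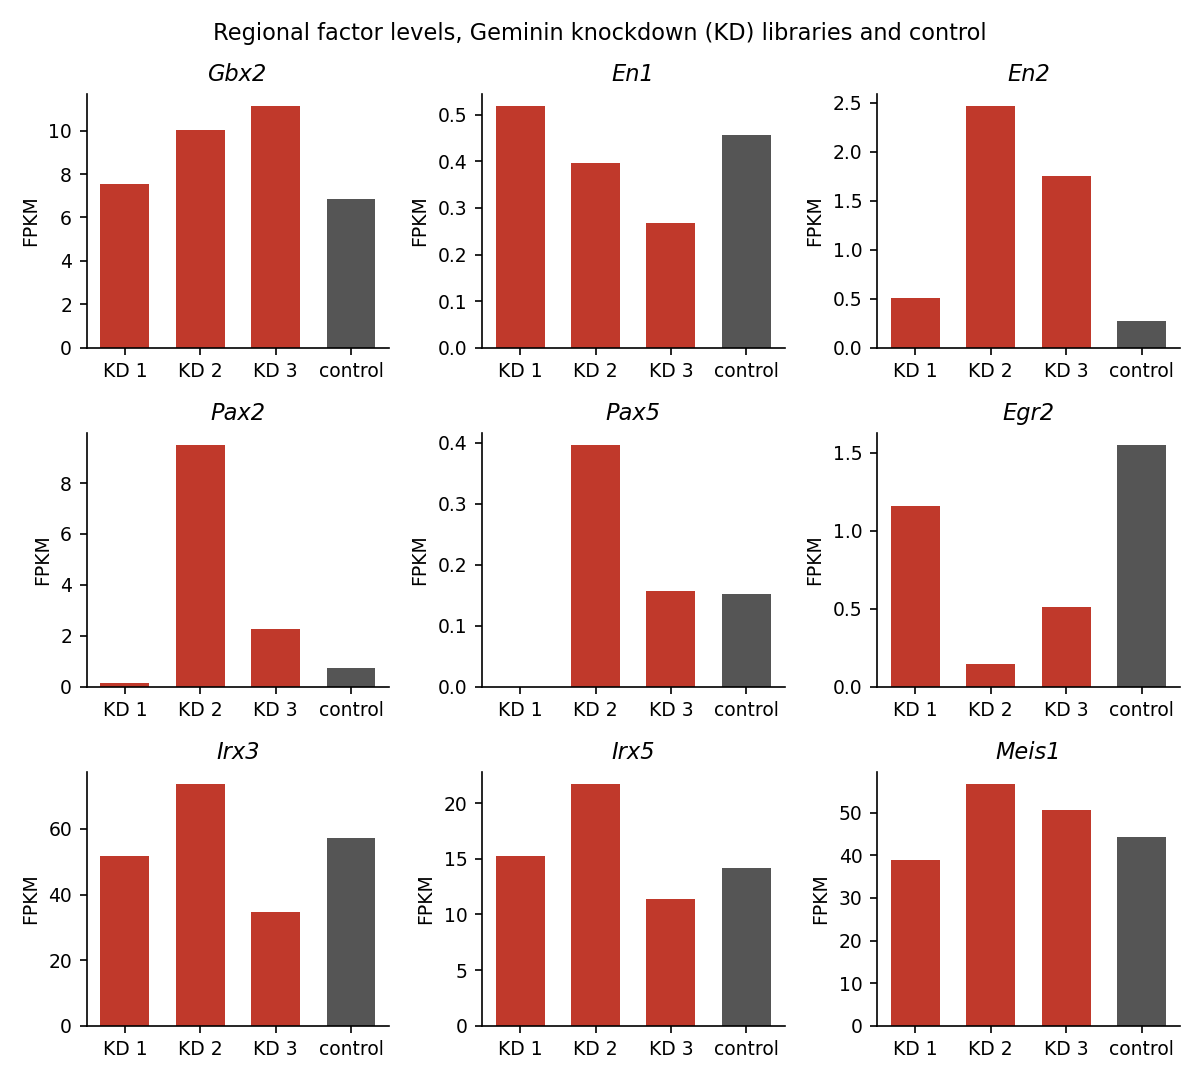
FPKM of each of the 9 genes in the 3 Geminin knockdown libraries (KD 1 to 3, red bars) and the control (grey bar), each panel on its own linear axis from 0. En2 is highest in KD 2 and KD 3, Pax2 stands out in KD 2 at 9.51 FPKM, and Egr2 is lowest in KD 2 at 0.144 FPKM.

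Irx3 and Meis1 were the abundant members and Pax5 the rarest. In the control the order by FPKM, a scale that corrects for transcript length, was Irx3 (57.1), Meis1 (44.2), Irx5 (14.2), Gbx2 (6.85), Egr2 (1.55), Pax2 (0.731), En1 (0.456), En2 (0.276) and Pax5 (0.152). The first 4 kept the upper ranks in every library, although Meis1 stood above Irx3 in knockdown library 3. Across the 3 knockdown libraries the ranges of Irx3 and Meis1 overlapped, while Meis1 lay wholly above Irx5 and Irx5 wholly above Gbx2. Below these, in the order of the knockdown means (Gbx2, Pax2, En2, Egr2, En1 and Pax5), the range of each gene overlapped that of the next, and Pax2 alone spanned 0.146 to 9.51 FPKM. The 5 lowest members changed place: Egr2 ranked 5th in the control and in library 1, but 9th in library 2.

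En2, an engrailed homeobox gene of the midbrain and anterior hindbrain, lies on chromosome 5 from 28492236 to 28498706 (mm9). Its level was 0.504, 2.47 and 1.75 FPKM in knockdown libraries 1, 2 and 3, against 0.276 FPKM in the control. All 3 knockdown libraries were above the control, by 1.83-fold, 8.96-fold and 6.35-fold, and library 1 was closest to it. The authors' deposited tables gave q-values of 0.689, 0.00123 and 0.0171 in that order. These levels rest on few reads. Low FPKM values change in steps of whole reads, and the smallest whole numbers that give the En2 ratios within 0.2% are 11, 62 and 37 reads in the knockdown libraries and 6 in the control. The true numbers may be larger. A fit with limma across 11968 features gave a mean log2 ratio of 0.93 with a standard error of 0.55 and a 95% interval of -0.53 to 2.39 on the log2(FPKM + 1) scale (adjusted p = 0.999, Benjamini-Hochberg). The call needs both library 2 and library 3: without either of them 0 members were called. En2 entered the fit through its high level in library 2, since its mean without that library was under the minimum of 1 FPKM.

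En1, the paralog of En2, did not share this pattern. It had 0.520, 0.396 and 0.268 FPKM in knockdown libraries 1, 2 and 3, against 0.456 FPKM in the control, which corresponds to as few as 8, 7 and 4 reads against 7. The knockdown libraries lay on both sides of the control. En2 was below En1 in library 1 and in the control, at 0.970 and 0.604 of its FPKM, but was 6.25 and 6.52 times En1 in libraries 2 and 3. The difference between the paralogs was not tested, since En1 was too low for a test. The nearest annotated gene beside En2 is Cnpy1, an isthmus gene tied to Fgf signalling in zebrafish, which lies 33296 bases away. Cnpy1 had 0.147, 0.703 and 1.37 FPKM in knockdown libraries 1, 2 and 3, against 0.369 FPKM in the control, and was not called.

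Pax2, a paired-box factor of the isthmus that inhibitory interneurons of the hindbrain and spinal cord also express, varied most of the 9 between experiments. It lies on chromosome 19 from 44831884 to 44910517 (mm9). It had 0.146, 9.51 and 2.26 FPKM in knockdown libraries 1, 2 and 3, against 0.731 FPKM in the control. Library 2 was 13.0 times and library 3 was 3.09 times the control, whereas library 1 was at 19.9% of it. The smallest whole reads that fit are 1, 75 and 15 against 5. In the authors' deposited tables only library 2 was marked, with a q-value of 3.71e-05, and library 3 had a q-value of 0.384. The mean log2 ratio in limma was 0.97 with a standard error of 1.25 and a 95% interval of -2.35 to 4.30 (adjusted p = 0.999), so the spread between knockdown libraries exceeded the mean difference. Without library 1 the mean log2 ratio was 1.76, and without library 2 it was 0.16.

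Pax5, the close relative that follows Pax2 at the isthmus, was near the detection limit. It was listed at 0 in library 1 and had 0.397 and 0.157 FPKM in libraries 2 and 3, against 0.152 FPKM in the control, or as few as 3 and 1 reads against 1. Pax5 is also a B cell factor, and 5 of 6 B cell markers were under 1 FPKM in every library. The sixth, Ebf1, which neurons express as well, rose and had 0.374, 5.40 and 2.16 FPKM in libraries 1, 2 and 3, against 0.150 FPKM in the control.

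Pax2 is expressed by inhibitory interneurons, whose other genes are given next. In the list of midbrain, hindbrain and spinal neuron types 2 of 14 measured genes rose and 0 fell, with 7 of them callable. Over all callable features 1.98% were higher and 0.905% were lower. The 2 were the LIM homeobox genes Lhx1 and Lhx5, which dorsal spinal interneurons express together with Pax2. Lhx1 had 0.180, 6.00 and 1.49 FPKM in knockdown libraries 1, 2 and 3, against 0.0602 FPKM in the control. Lhx5 had 0.181, 7.29 and 1.93 FPKM, against 0.121 FPKM in the control. Library 2 was the highest and library 3 the next for both, and both calls need these 2 libraries.

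Pax8, Lbx1 and Slc32a1 were set beside Pax2 after their values had been seen. Pax8, another relative of Pax2, was listed at 0 in library 1 and had 2.80 and 0.611 FPKM in libraries 2 and 3, against 0.0659 FPKM in the control. Lbx1, which specifies dorsal spinal interneurons, was listed at 0 in library 1 and had 7.04 and 2.15 FPKM in libraries 2 and 3, against 0.464 FPKM in the control. Slc32a1, the vesicular transporter for GABA and glycine, had 0.176, 2.45 and 0.545 FPKM, against 0.118 FPKM in the control. All 3 were marked in the authors' deposited table of library 2 alone, and Lbx1 and Slc32a1 could not be called for lack of usable tests in the others. Dbx2, a progenitor gene of the intermediate spinal cord, had the pattern closest to Pax2 among 11968 features, at a Euclidean distance of 0.316 over the 3 log2 ratios, and had 0.369, 8.61 and 2.06 FPKM, against 0.815 FPKM in the control. Wnt7a and Spock2 came next, at distances of 0.649 and 0.755, and both were called higher. Summed neuronal markers were also highest in library 2 and next in library 3, though Stmn2 was below the control in both. The part of neuronal cells in these levels was not tested. Intermediate mesoderm and kidney are another embryonic site of Pax2. Their 7 markers summed to 8.64, 11.6 and 8.09 FPKM in knockdown libraries 1, 2 and 3, against 9.56 FPKM in the control. The defining genes Osr1, Wt1 and Six2 were under 1 FPKM in every library.

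**Figure D2:**
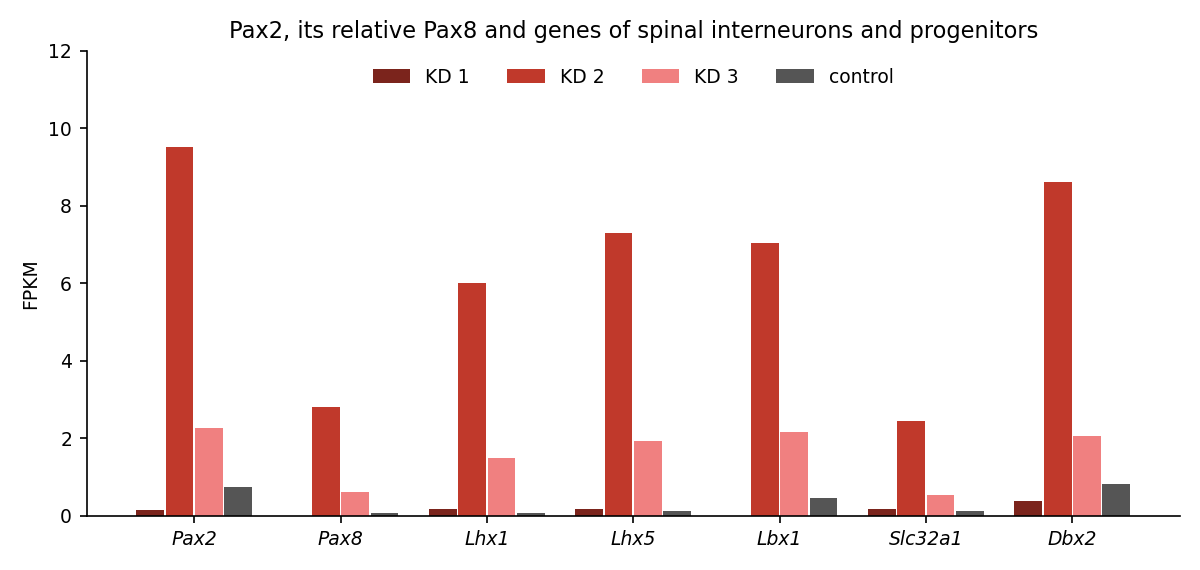
FPKM of Pax2, Pax8, Lhx1, Lhx5, Lbx1, Slc32a1 and Dbx2 in the 3 Geminin knockdown libraries (KD 1 to 3) and the control, on a linear axis from 0; Pax8, Lbx1 and Slc32a1 were chosen after their values were seen. Each is highest in KD 2, and each is next highest in KD 3. Dbx2 was chosen because its pattern was the closest to that of Pax2, so its shared order follows from the choice.

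Egr2, a zinc finger factor that directs Hoxa2, Hoxb2 and Epha4 in the hindbrain and is induced rapidly by growth signals in many cells, was the 1 member below the control in every knockdown library. It lies on chromosome 10 from 67000617 to 67004936 (mm9). It had 1.16, 0.144 and 0.514 FPKM in knockdown libraries 1, 2 and 3, against 1.55 FPKM in the control, and as few as 21, 3 and 9 reads against 28. All 3 knockdown libraries were below the control, at 74.8%, 9.29% and 33.1% of it. The authors' deposited tables marked library 2 alone, with a q-value of 0.00971, and library 3 had a q-value of 0.296, so Egr2 was not called. Its mean was under 1 FPKM, and it was left out of limma. Of the 9 members, 1 lay below the control in every knockdown library and 2 above it (Gbx2 and En2), where 22.9% and 22.7% of features tested by limma did so.

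The known targets of Egr2 were not called. Hoxa2 had 26.7, 30.9 and 25.9 FPKM in knockdown libraries 1, 2 and 3, against 26.3 FPKM in the control. Hoxb2 had 26.0, 31.2 and 20.0 FPKM, against 33.6 FPKM in the control, and Epha4, a receptor that separates hindbrain segments, had 46.0, 42.2 and 45.2 FPKM, against 48.7 FPKM. Hoxb2 and Epha4 were below the control in all 3 knockdown libraries, and Hoxa2 lay on both sides of it. Among its relatives, Egr1 had 18.7, 7.69 and 18.0 FPKM, against 16.3 FPKM in the control, and was marked in library 2 only. Egr3 was under 1 FPKM throughout, and Egr4 was listed at 0 in all 4 libraries. Egr2 also marks early Schwann cells, but Sox10, which defines neural crest glia, was under 1 FPKM in every library.

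The stretches of 250 bases before the start of transcription are given for Egr2 and Pax2, the member that was below the control in every knockdown library and the one that varied most among them. Promoters came from RefSeq (GRCm38.p6), matched by symbol for 7 of 9 members, all but En2 and Irx5; where several starts were listed, the one whose gene length was nearest the deposited locus was taken. Egr2 is at chr10:67537619-67537868 on the plus strand, and Pax2 at chr19:44756656-44756905 on the plus strand. Capitals mark, on either strand, a CArG box (CCATATATGG), the site of serum response factor in growth-induced genes, and a CCAAT box (CCAAT, read here as its complement). None of the matches overlaps another.
Egr2: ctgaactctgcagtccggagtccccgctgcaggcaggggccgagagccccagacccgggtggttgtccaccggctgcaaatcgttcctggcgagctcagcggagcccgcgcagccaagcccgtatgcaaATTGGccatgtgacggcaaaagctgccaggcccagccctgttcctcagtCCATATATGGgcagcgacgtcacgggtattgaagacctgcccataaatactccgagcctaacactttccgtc
Pax2: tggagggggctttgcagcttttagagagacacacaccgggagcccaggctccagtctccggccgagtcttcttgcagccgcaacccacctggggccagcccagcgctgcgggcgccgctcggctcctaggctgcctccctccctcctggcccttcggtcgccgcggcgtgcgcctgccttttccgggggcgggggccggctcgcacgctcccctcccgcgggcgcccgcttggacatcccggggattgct
The CArG box of Egr2 begins 72 bases before the start, and the same 10 letters occur in 0.0700% of 32851 RefSeq promoter stretches of this length. Only these 10 letters were searched for, so this is not the share of every form of CArG box. The CCAAT box begins 121 bases before the start, a motif found in 33.8% of them. The Pax2 stretch held neither of these strings of letters. Neither stretch held an E-box (CACGTG), a Meis motif (TGACAG) or a TATA box (TATAAA). The 2 stretches held 17 and 25 CpG dinucleotides, and the 7 matched members held 13 to 25, where the median of all stretches was 6. A match is a description of the letters and not a site of binding.

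Gbx2, the homeobox gene that sets the hindbrain side of the isthmus, was above the control in every knockdown library, by 1.10-fold, 1.46-fold and 1.63-fold. It lies on chromosome 1 from 91824537 to 91827751 (mm9) and had 7.55, 10.0 and 11.2 FPKM in knockdown libraries 1, 2 and 3, against 6.85 FPKM in the control. The mean was 9.57 ± 1.84 FPKM (SD, n = 3). The authors' deposited tables gave q-values of 0.898, 0.769 and 0.524, and the limma interval of the log2 ratio was -0.28 to 1.11 around 0.41 (adjusted p = 0.999). The level patterns closest to it were those of Caprin2 and Btg2, an antiproliferative gene, at distances of 0.0212 and 0.0256. Its paralog Gbx1 had 5.14, 4.79 and 2.90 FPKM in the same libraries, against 6.75 FPKM in the control, and was below the control in each. The direction of Gbx2 and of Gbx1 therefore differed in all 3 libraries, though neither was called and the difference was not tested. Summed pluripotency markers, like Gbx2, were lowest in the control and rose from library 1 to library 3. The part of pluripotent cells in the level of Gbx2 was not tested.

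Otx2, the opposing factor on the midbrain side, had 2.41, 1.83 and 2.07 FPKM in knockdown libraries 1, 2 and 3, against 1.51 FPKM in the control, and was not called. The ligands of the boundary, named with Gbx1 and Otx2 after their values were seen, were low. Fgf8 had 1.22, 0.301 and 0.370 FPKM, against 0.697 FPKM in the control, and was too low for a test. Wnt1 had 0.564, 0.306 and 0.655 FPKM, against 0.848 FPKM in the control. Among 20 measured genes of boundary signalling, 17 of them callable, 1 rose and 0 fell, where 1.98% of callable features were higher and 0.905% were lower. The 1 was Il17rd, a feedback inhibitor of Fgf signalling, which had 7.15, 5.25 and 9.19 FPKM, against 4.85 FPKM in the control. It was marked in libraries 1 and 3 and not in library 2. Fgf18, named after its values were seen, had 0.346, 3.16 and 4.11 FPKM, against 0.174 FPKM in the control, but was marked in no table.

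Irx3 and Irx5 lie 556421 bases apart on chromosome 8 and were higher than the control together in library 2 and lower together in library 3. Irx3, from 94322424 to 94325273 (mm9), had 51.7, 73.8 and 34.6 FPKM in knockdown libraries 1, 2 and 3, against 57.1 FPKM in the control. The authors' deposited tables marked the lower level in library 3, with a q-value of 0.0492, just inside the threshold of 0.05. Irx5, from 94881695 to 94885355, had 15.3, 21.8 and 11.4 FPKM, against 14.2 FPKM in the control, and was marked nowhere. The mean log2 ratios were -0.16 (95% interval -1.29 to 0.97) for Irx3 and 0.13 (-0.84 to 1.10) for Irx5, with an adjusted p = 0.999 for both in limma. The libraries thus lay on both sides of the control for both genes. In library 1 Irx3 was below the control and Irx5 above it. The FPKM of Irx3 over that of Irx5 was 3.39, 3.39 and 3.03 in the knockdown libraries, each below the 4.03 of the control. This difference was not tested.

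The remaining gene of this cluster, Irx6, kept the same order among the knockdown libraries at a low level, with 1.44, 2.38 and 1.12 FPKM in knockdown libraries 1, 2 and 3, against 1.38 FPKM in the control. Fto, which lies on the other side of Irx3, had 33.9, 38.1 and 33.4 FPKM, against 31.5 FPKM in the control. The other Iroquois cluster, on chromosome 13, did not share the order. Irx2 had 29.8, 21.9 and 20.5 FPKM, against 26.0 FPKM in the control, and Irx1 had 8.68, 21.7 and 15.2 FPKM, against 6.68 FPKM. Irx1 was above the control in all 3 libraries and had one of the 3 patterns closest to En2, at a distance of 0.158, after those of Hebp1 and Frmd4b. It was marked in 1 table and not called. Closest to Irx3 in pattern were the long noncoding RNA Sox2ot, Srd5a1 and the forkhead gene Foxb1, at distances of 0.0766 to 0.136, and Gap43, a growth cone protein, was among the 3 closest to Irx5.

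**Figure D3:**
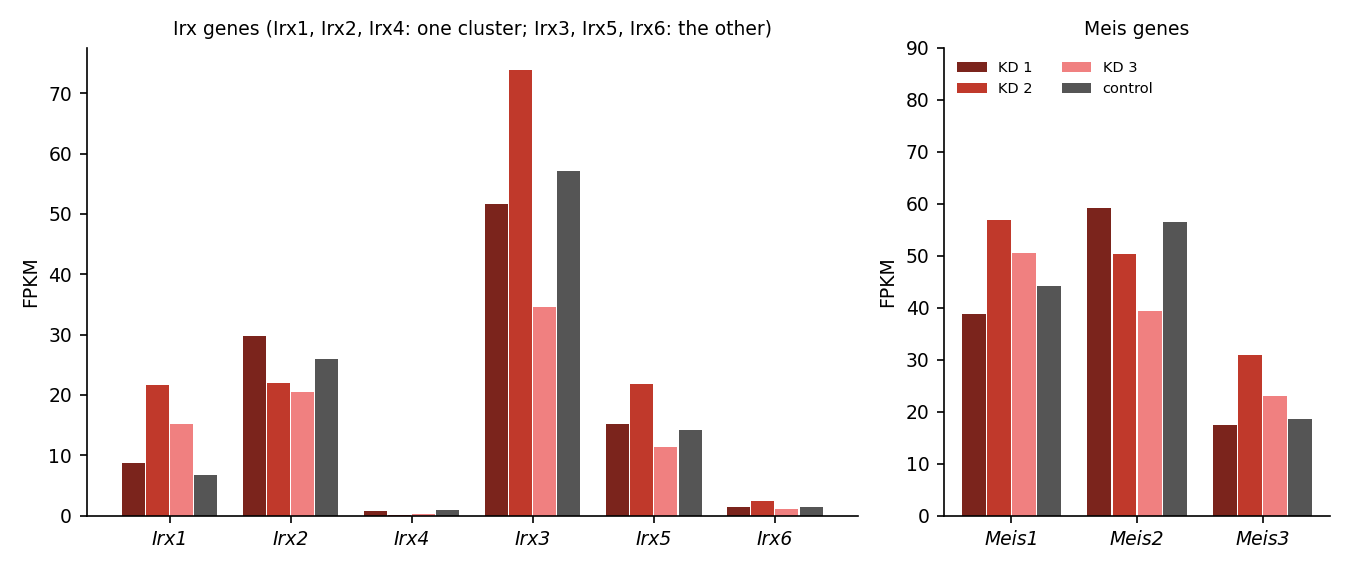
FPKM of the 6 Irx genes (left) and the 3 Meis genes (right) in the 3 Geminin knockdown libraries (KD 1 to 3) and the control, on linear axes from 0. Irx3, Irx5 and Irx6 are each highest in KD 2 and lowest in KD 3, whereas Irx2 is lowest in KD 3 and highest in KD 1.

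Meis1 was among the steadiest members. It lies on chromosome 11 from 18780431 to 18918972 (mm9) and had 38.8, 56.8 and 50.5 FPKM in knockdown libraries 1, 2 and 3, against 44.2 FPKM in the control, with library 1 below it and the others above. The mean was 48.7 ± 9.15 FPKM (SD, n = 3), and the limma interval of the log2 ratio was -0.52 to 0.76 around 0.12 (adjusted p = 0.999), the narrowest of the 6 members tested. Blood progenitors also express Meis1. Of 6 measured blood progenitor markers, Gata1, Hbb-y and Hba-x were listed at 0 in all 4 libraries, Tal1 and Runx1 were under 1 FPKM, and Kit had 13.2, 15.7 and 23.1 FPKM in knockdown libraries 1, 2 and 3, against 14.5 FPKM in the control. The part of such cells in the level of Meis1 was not tested. Fibroblast markers, listed because of the feeder cells, summed to 44.0, 60.9 and 93.4 FPKM over 13 genes in knockdown libraries 1, 2 and 3, against 42.2 FPKM in the control, and their part in the level of Meis1 was not tested. Meis2 had 59.1, 50.3 and 39.3 FPKM, against 56.4 FPKM in the control, so it was below the control where Meis1 was above it. Meis2 was marked in 1 table and not called. Meis3 had 17.4, 30.9 and 23.1 FPKM, against 18.6 FPKM in the control, and lay on the same side of it as Meis1 in each library. Meis3 was not called.

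Of 10 callable TALE homeodomain genes, the class that holds the Meis, Pbx and Pknox proteins, 0 rose and 1 fell. Over all callable features 1.98% were higher and 0.905% were lower. Pknox2, a partner of Pbx proteins, had 22.9, 11.7 and 10.3 FPKM in knockdown libraries 1, 2 and 3, against 21.7 FPKM in the control. Library 1 was close to the control and libraries 2 and 3 were low. Pbx2 and Pbx3 were abundant and not called. Among 11 other members of the Gbx, Pax, Egr, Irx and Meis families 0 rose and 0 fell, with 9 of them callable. Over all callable features 2.88% were called in either direction.

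**Figure D4:**
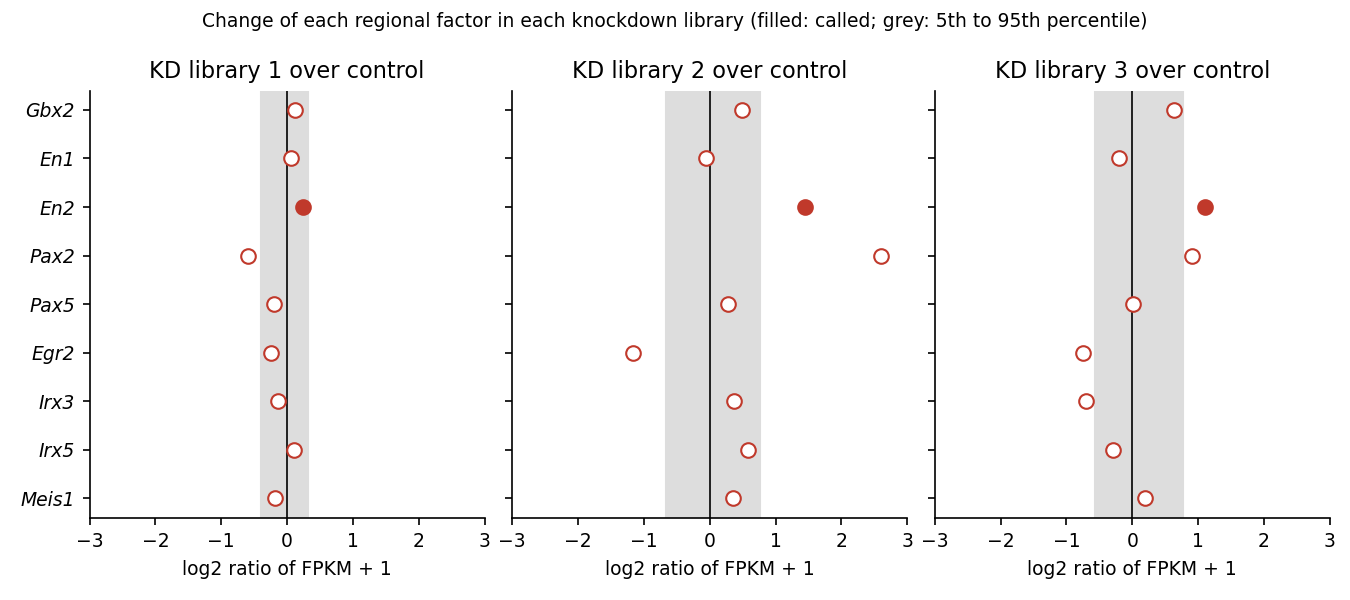
Log2 ratio of FPKM + 1 in each knockdown library over the control, with 1 row a gene; the filled point is En2, the 1 member called, and the grey band spans the 5th to the 95th percentile of 11968 features. Pax2 lies outside the band in all 3 libraries, En2 and Egr2 in KD 2 and KD 3, and Irx3 in KD 3.

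As a group the 9 genes had no common direction. Their median log2 ratio was -0.14, 0.36 and 0.01 in knockdown libraries 1, 2 and 3, where the median of all tested features was -0.02, 0.03 and 0.01. The median size of the change without regard to sign was 0.18, 0.49 and 0.63, where that of all tested features was 0.13, 0.20 and 0.19. These sets are unlike, since En1, Pax5 and Egr2 count among the 9 genes but were too low to be among the tested features. In library 1, 4 members were above the control and 5 below it, in library 2 the counts were 7 and 2, and in library 3 they were 5 and 4. The 3 ratios share the control, so its own error enters each of them. In limma 0 of the 6 members tested passed the threshold and 0 had an unadjusted p under 0.05, where 0.125% and 1.27% of features did so. The smallest p that an exact permutation of 3 libraries against 1 could give is 0.25 one-sided.

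Counts of called genes of neighbouring territories stand beside 1.98% of callable features that were higher and 0.905% that were lower. Of 18 midbrain factors, 12 of them callable, 0 rose and 1 fell: Dmbx1, a homeobox gene of the midbrain, had 1.16, 0.278 and 0.289 FPKM in knockdown libraries 1, 2 and 3, against 1.40 FPKM in the control. Of 17 rhombomere factors, 14 of them callable, 0 rose and 2 fell. One of them, Cyp26b1, an enzyme that breaks down retinoic acid in the hindbrain, had 6.67, 0.645 and 1.08 FPKM, against 9.73 FPKM in the control. Libraries 2 and 3 were the lowest and library 1 the closest to the control for both Dmbx1 and Cyp26b1.

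Of 16 genes of caudal specification, 8 of them callable, 0 rose and 1 fell: Wnt8a, a Wnt ligand of the early posterior embryo, had 10.9, 0.808 and 2.04 FPKM in knockdown libraries 1, 2 and 3, against 9.90 FPKM in the control. The caudal genes Cdx1, Cdx2 and Cdx4 were under 1 FPKM in every library. Of 18 genes that divide the neural tube from dorsal to ventral, 13 of them callable, 0 rose and 0 fell, where 2.88% of callable features were called in either direction. Pax6 had 57.6, 75.6 and 48.8 FPKM, against 55.8 FPKM in the control, and was above and below it in the same libraries as Irx5. Pax3 had 16.4, 15.0 and 11.5 FPKM, against 16.7 FPKM in the control. Without library 2, or without library 3, none of the falls in these lists remained, and Il17rd was the 1 call left without library 2.

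The list medians, over the genes that limma tested and given as a description, differed between libraries. In knockdown libraries 1, 2 and 3 the median log2 ratio of 14 rhombomere factors was -0.11, -0.32 and -0.04, and that of 14 boundary signalling genes was 0.10, 0.07 and 0.23. It was 0.07, -0.15 and -0.03 for 9 midbrain factors, and -0.04, 0.41 and 0.29 for 10 dorsoventral genes. The 7 caudal genes had -0.21, -0.29 and 0.43, the 7 family relatives 0.07, -0.16 and -0.17, and the 10 TALE genes 0.04, 0.27 and -0.02. Only 2 of the neuron type genes were tested, so their median is not given as a summary. The rhombomere list alone lay below 0 in every library and the boundary signalling list alone above it.

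**Figure D5:**
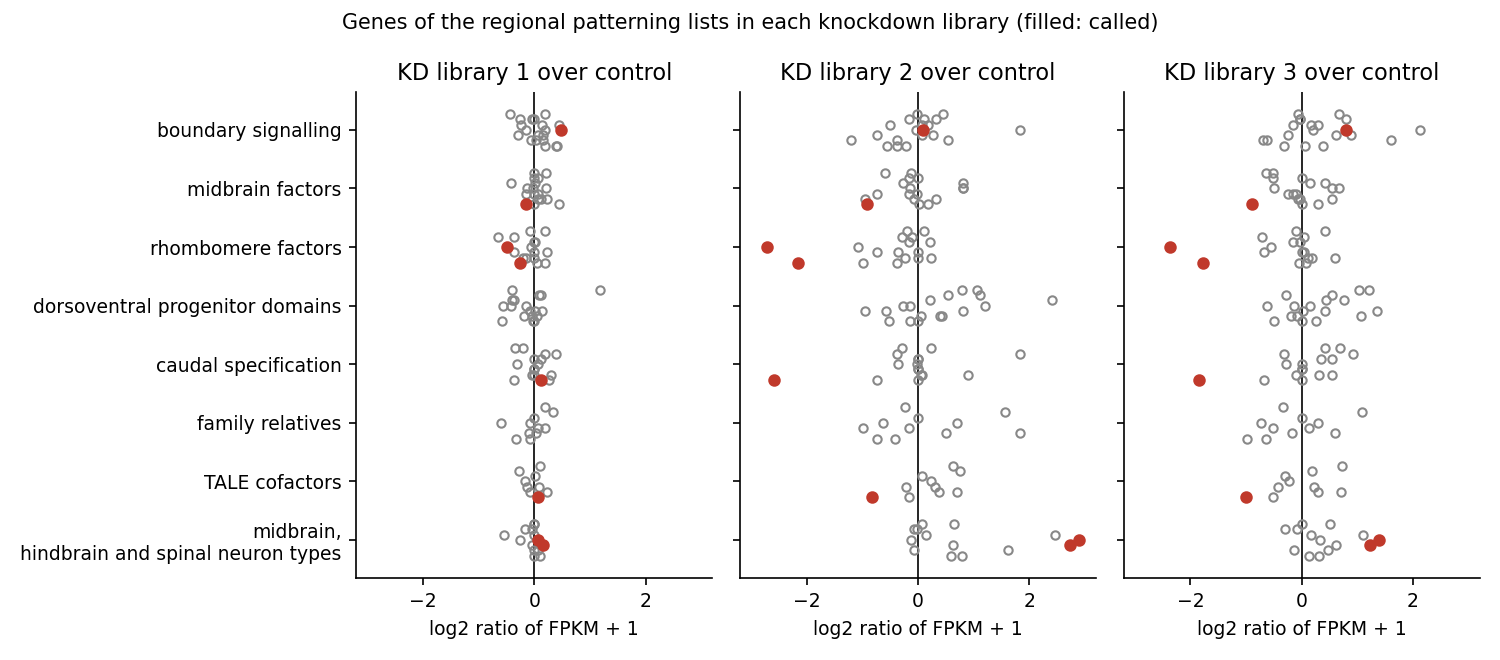
Log2 ratio of FPKM + 1 in each knockdown library over the control for every measured gene of 8 lists of regional patterning; filled points are genes called. Il17rd is the filled point of boundary signalling, near 0 in KD 2; the other filled points lie closer to 0 in KD 1 than in KD 2 or KD 3.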

How the data were processed

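The submitters' processing notes name TopHat, Cufflinks, Cuffdiff and mm9; tool versions, the gene models and strand use in counting are not given. Each of the 3 deposited tables sets 1 knockdown library against the same control, per the file headers. The authors gave FPKM for both libraries, a Cuffdiff p-value and a q-value, which passes 1 in places and was handled as a score. Each Cuffdiff test compares 2 libraries and not the conditions. Replicates came from independent experiments per the labels. A pair of files that only repeat marked features was left out.

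Counts are not given. Ratios of features too low for a test fell on ratios of whole numbers up to 12 within 0.2% in 85.1% to 87.8% of cases, which gave depths of 1.00, 1.15 and 0.971 relative to the control for knockdown libraries 1, 2 and 3. Absolute depth is unknown, so no counting interval is given. No annotated feature overlapped a member. Ratios were formed within a table, since control values differed by over 0.1% between tables in some features.

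A feature was callable with a usable test in at least 2 tables. A linear model of log2(FPKM + 1) was fitted with limma (3.58.1, R 4.3.3), on a scale that understates changes of low genes, for features usable in all 3 tables with a mean of at least 1 FPKM, with a trended prior variance. The 2 residual degrees of freedom come from the knockdown libraries, and the lone control is taken to vary likewise. P-values were adjusted by Benjamini-Hochberg with a threshold of 0.05. The fit was tested on simulated data.

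The members and lists were chosen with earlier results of these data known. Named genes are the members, Gmnn, up to 4 called genes of each list with the largest mean change or else its 2 most abundant, and the 3 features nearest in Euclidean distance over the 3 log2 ratios to each member with a mean of at least 1 FPKM. Others named were chosen for a known tie to a member after their values were seen: Egr1, Egr3, Egr4, Hoxa2, Hoxb2, Epha4, Pax8, Lbx1, Slc32a1, Cnpy1, Fto, Gbx1, Otx2, Fgf8, Fgf18, Wnt1, Irx6, Meis3, Pbx2, Pbx3 and the Cdx genes. Not every gene chosen in this way is reported here. Marker lists for neural precursors, neurons, pluripotent cells, fibroblasts, kidney, B cells, neural crest and blood checked the label and other sources; the neural crest list summed to 24.3, 15.7 and 16.4 FPKM in knockdown libraries 1, 2 and 3, against 26.1 FPKM in the control, and the blood list to 14.1, 16.2 and 23.8 FPKM, against 14.9 FPKM.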

Additional observations from a re-analysis of the deposited data

How the results depend on the processing

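Without knockdown library 1 En2 remained the 1 member called higher, and over the 3 fits that leave out a library the count ranged from 0 to 1. It was 0 when all 3 tables had to mark a gene, 0 with a q-value of at most 0.01, and 1 with a fold rule of 1 log2 unit in 2 tables. With 1 table enough, 2 members were higher (En2 and Pax2) and 2 lower (Egr2 and Irx3), where 8.48% of features were marked. Limma called 0 members under every alternative, with adjusted p from 0.353 to 1.00. Over all features limma called 3 higher and 12 lower as reported, 0 and 4 with no filter on mean FPKM, and 7 and 25 without library 1. The mean log2 ratio of Irx3 was 0.11 without library 3, and that of Irx5 was -0.10 without library 2, so both turned round with 1 library left out; over the 3 such fits Irx3 ranged from -0.42 to 0.11 and Irx5 from -0.10 to 0.34. With a pseudocount of 0.1 the mean log2 ratios of En1, Egr2 and En2 were -0.20, -1.53 and 1.92, the last against 0.93 as reported; the cause is the smaller pseudocount itself, which weighs low values more. Of the alternative values, 72 kept their direction and their side of the threshold or stayed within the spread. No paired analysis was possible because the control has 1 library. Levels of En1, En2, Pax2, Pax5 and Egr2 rest on few reads in at least 1 library, which limits what any setting can show.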
